A study of Mus musculus with 12 samples.

Results

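Levels of 10 genes of the S100 family of calcium-binding proteins, S100a1, S100a3, S100a4, S100a6, S100a7a, S100a8, S100a9, S100a10, S100a11 and S100b, were examined in mouse ear tissue. The list of 10 was chosen with earlier results of these data known. A probe was included when its symbol in the platform annotation was on that list. Each of the 10 had 1 probe, out of 14277 named genes on the array. Samples came from the inbred strains LG/J, which closes ear punch holes readily, and SM/J, which does so poorly. The groups were LG/J ear from around the punch at day 7 after injury, LG/J uninjured ear, SM/J ear from around the punch at day 7 and SM/J uninjured ear, with 3 arrays each and no other treatment or allele given in the labels. In addition, 5 other genes of the family with a named probe (S100a5, S100a13, S100a14, S100a16 and S100z) served as a comparison, and S100a2, S100a7l2 and S100g had no named probe.

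S100 proteins are small proteins that change shape when calcium binds to a pair of EF-hand loops, and most act as dimers that then attach to partner proteins inside the cell. Several are also released, and outside the cell S100a8 with S100a9 can act on Toll-like receptor and RAGE signalling while holding zinc and manganese away from microbes. In skin, family members are known from keratinocytes, hair cuticle, leukocytes, fibroblasts and the glia of peripheral nerve. In the RefSeq order of genes on mouse chromosome 3, 9 of the 10 members stand within 1 segment of 70 protein-coding genes, the epidermal differentiation complex and its flanks, and S100b is on chromosome 10.

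RefSeq promoter windows (build GRCm38.p6, 250 bases before to 50 bases after an annotated start) were found for 9 of the 10 members. The upstream 250 bases follow for the 3 members that rose in both strains, for S100b, which fell, and for S100a4, which separated the strains. Capitals mark, on either strand, TATAAA in S100a8 and S100a4 and the C/EBP pattern TTNNGNAA in S100a8 and S100a9. In S100a7a they mark the STAT pattern TTCNNNGAA.
S100a8, chr3:90668821-90669070, plus strand: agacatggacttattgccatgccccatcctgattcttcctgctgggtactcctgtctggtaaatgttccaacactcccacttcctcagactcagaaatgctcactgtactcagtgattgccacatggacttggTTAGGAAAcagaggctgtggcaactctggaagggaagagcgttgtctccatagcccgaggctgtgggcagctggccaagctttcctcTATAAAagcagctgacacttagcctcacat
S100a9, chr3:90695722-90695971, minus strand: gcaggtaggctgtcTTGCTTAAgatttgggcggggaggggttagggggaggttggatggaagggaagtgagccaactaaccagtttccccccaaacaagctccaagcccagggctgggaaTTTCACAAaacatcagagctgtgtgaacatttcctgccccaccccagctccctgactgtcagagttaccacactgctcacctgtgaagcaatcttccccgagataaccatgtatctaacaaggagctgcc
S100a7a, chr3:90654052-90654301, plus strand: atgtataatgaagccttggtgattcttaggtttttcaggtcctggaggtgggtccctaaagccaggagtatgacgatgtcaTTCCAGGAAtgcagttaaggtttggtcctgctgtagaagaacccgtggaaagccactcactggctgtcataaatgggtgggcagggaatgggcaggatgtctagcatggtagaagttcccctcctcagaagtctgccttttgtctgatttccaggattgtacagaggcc
S100a4, chr3:90603520-90603769, plus strand: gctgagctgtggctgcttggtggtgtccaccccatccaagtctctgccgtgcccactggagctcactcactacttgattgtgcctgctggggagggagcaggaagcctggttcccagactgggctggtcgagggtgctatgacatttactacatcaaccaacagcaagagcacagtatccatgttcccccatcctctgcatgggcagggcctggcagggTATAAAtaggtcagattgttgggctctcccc
S100b, chr10:76253586-76253835, plus strand: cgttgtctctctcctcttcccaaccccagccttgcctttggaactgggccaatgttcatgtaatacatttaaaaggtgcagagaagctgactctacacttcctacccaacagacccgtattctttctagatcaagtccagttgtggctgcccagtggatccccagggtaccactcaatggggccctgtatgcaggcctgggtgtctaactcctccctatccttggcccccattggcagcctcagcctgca
The letters TATAAA, the core of an element found just upstream of the start in many tissue-restricted genes, were in the 300-base window of 4 of the 9 members (S100a3, S100a4, S100a8 and S100a9), against 13.6% of all 32851 windows, and in S100a9 the match begins at the annotated start and so lies outside the printed bases. The C/EBP pattern was in 3 members (S100a3, S100a8 and S100a9), against 40.7% of all windows. The STAT pattern was in S100a7a alone among the members (8.3% of all windows), the AP-1 pattern in S100a11 alone (7.81%), and an NF-kB pattern in S100a1 alone (18.4%). None of these 5 patterns occurs in the printed bases of S100b. S100a3 has 4 windows and the other members with a window have 1, so counts per gene and shares per window are not on the same footing.

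Values are bead-array signals, background-corrected, put on a log2 scale and quantile normalized, so a difference of 1 is a doubling of signal. Median signal per array ran from 95.9 to 118 intensity units. The signal below which a probe could not be told from background lay between 5.74 and 5.84 on the log2 scale. Differences were tested with limma over 24691 features and called at a Benjamini-Hochberg adjusted p under 0.05, and errors on log2 differences are standard errors with n = 3 arrays per group. The epidermal keratin gene Krt14 was at 15.3 to 15.6 on all 12 arrays and the cartilage gene Acan at 9.51 to 11.5, so markers of ear skin and of ear cartilage were present. LG/J uninjured replicate 4 stood apart from the other LG/J uninjured arrays, scoring 2.01 on the first principal component against -51.9 and -49.6, and SM/J uninjured replicate 2 had a mean skeletal muscle marker level of 11.7 against 10.5 and 10.7 in its group. Without these 2 arrays, no call of a member was lost in any of the 5 comparisons.

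**Figure D1:**
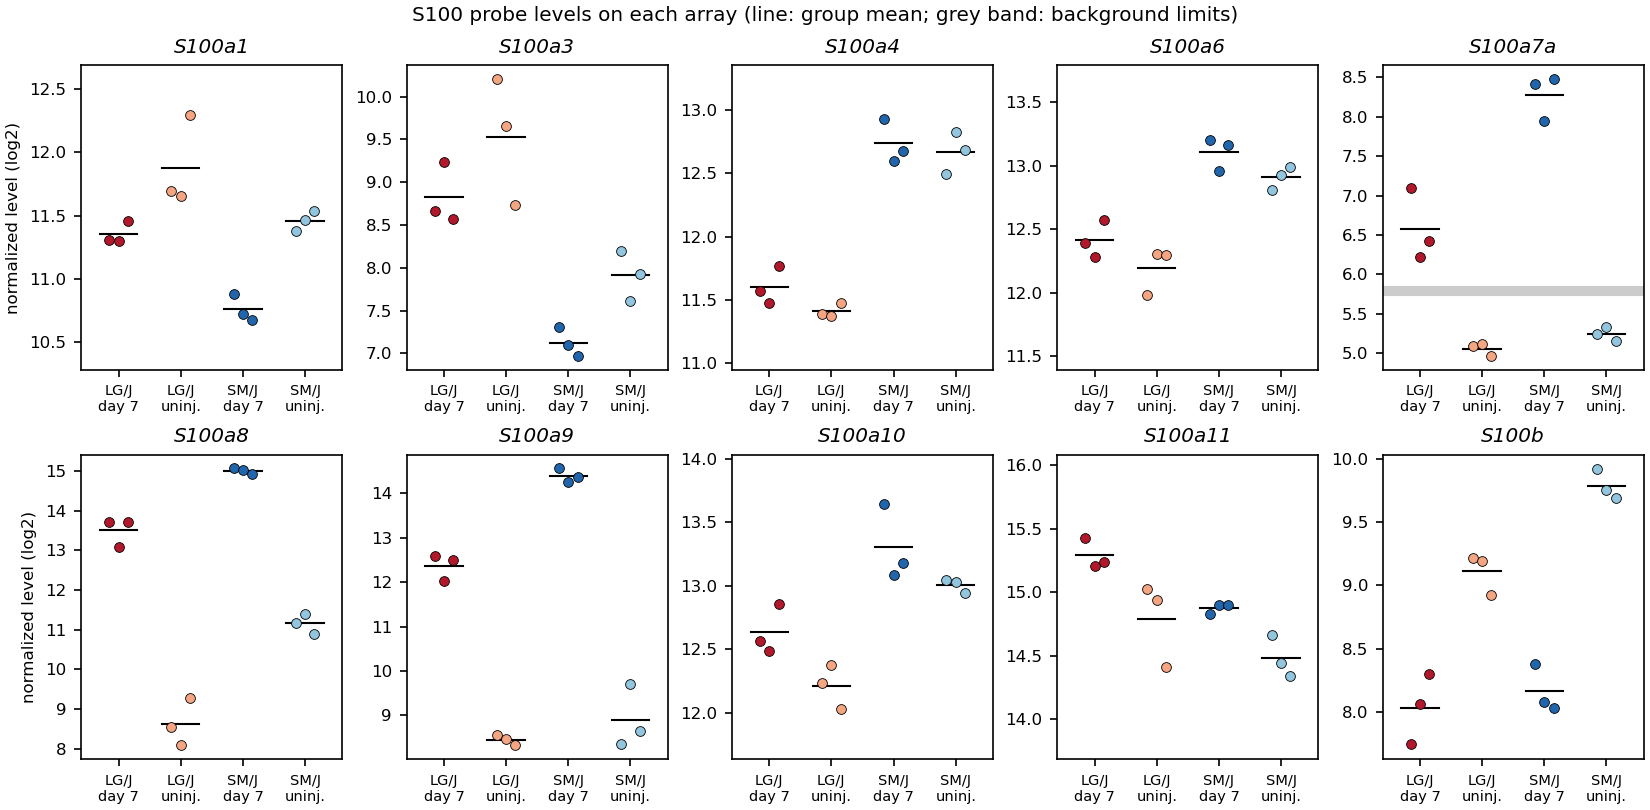
Normalized log2 level of each S100 probe (vertical axes, each panel with its own range of at least 2.4 units) on each of the 12 arrays, by group; points are arrays, lines are group means and the grey band is the range of background limits. S100a8 and S100a9 separate day 7 from uninjured ear in both strains, S100a7a leaves the background only at day 7, and S100a3 and S100a4 separate the strains.

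The first question was how the family behaves around the wound. In LG/J, S100a8, S100a9 and S100a7a rose and S100b fell, which is 4 of 10 members called, where 10.4% of all features were called (5.44% up and 4.95% down). In SM/J, the same 3 genes rose and S100b and S100a1 fell, which is 5 of 10, where 10.3% of all features were called (5.66% up and 4.6% down). S100a7a counts among these calls, although it passed the filter on dim signals only through its day 7 groups and its rises are bounds. The members were chosen with earlier results of these data known, so counts of members here and below describe the list only. Day 7 and uninjured arrays did not overlap for 7 members in LG/J, where 28.8% of all features did not, and for 8 members in SM/J, where 31.9% did not. The median log2 change of the 10 members was 0.32 in LG/J and 0.25 in SM/J, against -0.0021 and -0.0023 over all features. S100a4, S100a6, S100a10 and S100a11 had log2 changes between 0.07 and 0.50 in the 2 strains and passed the test in neither.

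S100a8 codes for the smaller chain of calprotectin, the S100a8 and S100a9 complex that neutrophils carry in their cytosol and that keratinocytes make when epidermis is injured. Its probe was at 13.70, 13.09 and 13.72 on the LG/J day 7 arrays, against 8.54, 8.09 and 9.27 on the LG/J uninjured arrays. In SM/J it was at 15.07, 15.03 and 14.94 at day 7, against 11.18, 11.40 and 10.90 in uninjured ear. All day 7 arrays lay above all uninjured arrays, and within each state the SM/J arrays lay above the LG/J arrays. The log2 change was 4.87 ± 0.25 in LG/J (29.2-fold, adjusted p = 3.7e-08), the 14th largest of all features, and 3.85 ± 0.25 in SM/J (14.4-fold, adjusted p = 3.66e-07). The raw signals on the SM/J day 7 arrays were 32342, 32901 and 27261 intensity units where the highest signals of those arrays lay between 49634 and 50416, and whether this compresses the SM/J value was not tested. In bulk tissue, more cells that carry a transcript and more transcript per cell cannot be told apart.

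S100a9, the other chain of calprotectin, was at 12.60, 12.02 and 12.49 on the LG/J day 7 arrays, against 8.55, 8.46 and 8.33 on the LG/J uninjured arrays. In SM/J it was at 14.57, 14.27 and 14.36 at day 7, against 8.35, 9.70 and 8.65 in uninjured ear. Day 7 and uninjured arrays did not overlap in either strain, and SM/J uninjured replicate 4 was the highest uninjured array. The log2 change was 3.92 ± 0.27 in LG/J (15.2-fold, adjusted p = 6.59e-07) and 5.50 ± 0.27 in SM/J (45.3-fold, adjusted p = 2.18e-08), the 10th largest of all features in SM/J.

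The fitted change of S100a8 was larger in LG/J and that of S100a9 was larger in SM/J. In the limma fit neither difference of changes was called (S100a8 1.01, adjusted p = 0.338, and S100a9 -1.58, adjusted p = 0.0961). S100a9 minus S100a8, each centred on its mean over the 12 arrays, was -0.06, -0.01 and -0.17 on the LG/J day 7 arrays, against 1.06, 1.42 and 0.11 on the LG/J uninjured arrays. In SM/J the same quantity was 0.55, 0.28 and 0.47 at day 7, against -1.78, -0.65 and -1.21 in uninjured ear. In LG/J all day 7 arrays lay below the uninjured ones, and in SM/J all lay above them. The change of S100a9 relative to S100a8 was -0.94 in LG/J and 1.65 in SM/J on the log2 scale. This contrast between probes was noticed after the values were seen and was not tested. Whether the high raw S100a8 signals on the SM/J day 7 arrays, given above, compress S100a8 and so shift this contrast was not tested either.

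S100a7a is the mouse relative of the human antimicrobial skin proteins psoriasin and koebnerisin. Its probe was at 7.10, 6.22 and 6.42 on the LG/J day 7 arrays, against 5.10, 5.11 and 4.97 on the LG/J uninjured arrays. In SM/J it was at 8.42, 7.95 and 8.48 at day 7, against 5.24, 5.34 and 5.15 in uninjured ear. Every uninjured array of both strains lay under its background limit and every day 7 array above it, so in uninjured ear this transcript was not above background. It was at least 1.73-fold higher at day 7 in LG/J and at least 5.64-fold higher in SM/J, taking each uninjured array at the background limit. The fitted log2 changes were 1.52 ± 0.20 (adjusted p = 0.000373) and 3.04 ± 0.20 (adjusted p = 4.07e-07). The probe passed the filter on dim signals through its day 7 groups, since both uninjured means (5.06 in LG/J and 5.24 in SM/J) were under the threshold of 5.25.

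S100b is the S100 protein of glia, used as a marker of Schwann cells, and is also made by melanocytes, chondrocytes and adipocytes. Its probe was at 7.75, 8.06 and 8.30 on the LG/J day 7 arrays, against 9.21, 9.19 and 8.93 on the LG/J uninjured arrays. In SM/J it was at 8.38, 8.08 and 8.04 at day 7, against 9.91, 9.75 and 9.69 in uninjured ear. Every day 7 array lay below every uninjured array. The log2 change was -1.07 ± 0.16 in LG/J (adjusted p = 0.000818) and -1.62 ± 0.16 in SM/J (adjusted p = 1.82e-05), the 23rd largest fall of all features in SM/J.

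S100a1, which binds calcium-release channels of striated muscle, was at 11.31, 11.30 and 11.46 on the LG/J day 7 arrays, against 11.69, 11.65 and 12.29 on the LG/J uninjured arrays. In SM/J it was at 10.88, 10.72 and 10.68 at day 7, against 11.38, 11.46 and 11.54 in uninjured ear. The groups did not overlap in either strain. The fall in SM/J passed the test (-0.70 ± 0.16, adjusted p = 0.0129) and lost the call without SM/J uninjured replicate 5 (-0.66, adjusted p = 0.058). The change in LG/J was -0.52 ± 0.16 (adjusted p = 0.0538). Leaving out either of the LG/J uninjured replicates 1 and 3 gave -0.62 and -0.64, both called (adjusted p of 0.0456 and 0.0347). It was also called under 7 other settings (adjusted p of 0.0152 to 0.0495). Both removals keep LG/J uninjured replicate 4, the array that stood apart, whose level of 12.29 was the highest of the group. With array weights, among those 7 settings, the change was smaller, at -0.34. Skeletal muscle markers also moved in LG/J, with 12 of 21 down and 2 up, where 4.95% of all features fell and 5.44% rose. But in SM/J 2 were down and 2 up, where 4.6% of all features fell and 5.66% rose. The mean level of the muscle markers was 10.9 to 11.2 at day 7 against 11.4 to 12.1 in uninjured ear in LG/J. In SM/J it was 10.5 to 10.7 at day 7 against 10.5 to 11.7 in uninjured ear. The part of these markers in the S100a1 values was not tested.

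S100a3, a protein of the hair cuticle, did not pass the test in either strain, where its log2 change was -0.71 ± 0.30 (adjusted p = 0.162, LG/J) and -0.79 ± 0.30 (adjusted p = 0.118, SM/J). The LG/J value depended on LG/J uninjured replicate 4, at 8.73 against 10.21 and 9.66 for the others of its group. Without it the changes were -1.11 in LG/J (adjusted p = 0.00791) and -0.79 in SM/J (adjusted p = 0.0178), both called. With all arrays kept, both were also called with array weights (-1.07 and -0.73) and with a replicate block (-1.04 and -1.20). On LG/J uninjured replicate 4 the mean level of 15 hair shaft and follicle markers was 5.81, the lowest of the group, whose highest was 6.84.

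The broadly expressed members had small changes. S100a11, a partner of annexins that human keratinocytes build into the cornified envelope, was at 15.43, 15.21 and 15.24 on the LG/J day 7 arrays, against 15.03, 14.94 and 14.41 on the LG/J uninjured arrays. In SM/J it was at 14.83, 14.90 and 14.90 at day 7, against 14.66, 14.44 and 14.34 in uninjured ear. The groups did not overlap, yet the log2 changes of 0.50 ± 0.16 (adjusted p = 0.0649) and 0.39 ± 0.16 (adjusted p = 0.149) missed the threshold. The raw S100a11 signals on the LG/J day 7 arrays were 47514, 38321.4 and 40477.5 intensity units. The highest signals of those arrays were 58560.2, 58990.1 and 54262.3, and whether this compresses the change was not tested. Leaving out LG/J uninjured replicate 1 made the LG/J change a call (0.62, adjusted p = 0.0398). So did 6 other settings, among them no background correction and the authors' deposited table (adjusted p of 0.024 to 0.0468). That removal keeps LG/J uninjured replicate 4, the array that stood apart, whose level of 14.41 was the lowest of the group. With array weights, among those 6 settings, the LG/J change was smaller, at 0.39. Leaving out LG/J uninjured replicate 4 made the SM/J change a call (0.39, adjusted p = 0.0339). S100a10, the light chain of the annexin A2 complex, had changes of 0.42 ± 0.16 (LG/J) and 0.30 ± 0.16 (SM/J). S100a6, or calcyclin, had 0.22 ± 0.14 in LG/J and 0.20 ± 0.14 in SM/J. S100a4, which binds non-muscle myosin and is used as a marker of fibroblasts and motile leukocytes, had 0.19 ± 0.14 in LG/J and 0.07 ± 0.14 in SM/J.

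**Figure D2:**
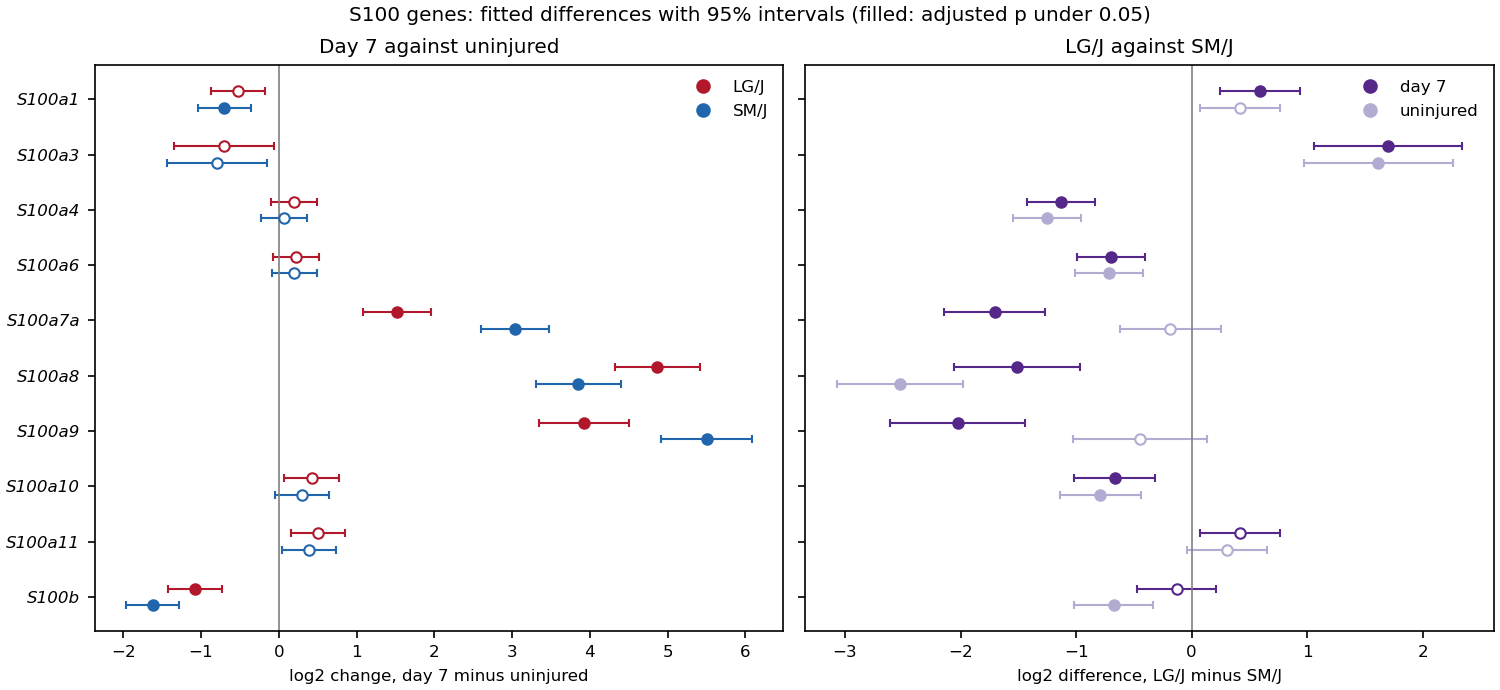
Fitted log2 differences (horizontal axes) of each S100 gene with 95% confidence intervals, day 7 minus uninjured in LG/J and SM/J (left) and LG/J minus SM/J at day 7 and in uninjured ear (right); filled points passed an adjusted p of 0.05. S100a8 and S100a9 swap their order between the strains on the left, and on the right S100a3 lies above 0 and S100a4, S100a6, S100a8 and S100a10 below 0 in both states.

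The second question was whether the 2 strains responded to the wound by different amounts. Of all features, 0.425% were called for the difference of the changes, LG/J minus SM/J (0.373% with the smaller value in LG/J), and 1 of the 10 members was, S100a7a. The fitted difference was -1.52 ± 0.29 on the log2 scale (adjusted p = 0.041). Since both strains were under the background limit in uninjured ear, each rise is known only as a lower bound and which strain rose less was not measured: the measured part is the day 7 level, which was lower on every LG/J array than on every SM/J array. The call was lost without any 1 of 9 arrays (adjusted p up to 0.139), namely LG/J day 7 replicates 2 and 3, LG/J uninjured replicates 1 and 3, the 3 SM/J day 7 arrays and SM/J uninjured replicates 4 and 5. S100a9 had a difference of -1.58 ± 0.38 (adjusted p = 0.0961), which was called without SM/J uninjured replicate 4 (-1.98, adjusted p = 0.0143). S100a8 had a difference of the opposite sign, 1.01 ± 0.36 (adjusted p = 0.338), and S100b one of 0.54 ± 0.23 (adjusted p = 0.466). For the other 6 members the difference lay between 0.02 and 0.17, and the widest 95% interval, that of S100a3, reached down to -0.83.

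The third question was how the strains differed in each state. At day 7, 8 of the 10 members were called, where 24.6% of all features were (14.1% up and 10.5% down): S100a1 and S100a3 were higher in LG/J, and S100a4, S100a6, S100a7a, S100a8, S100a9 and S100a10 were lower. In uninjured ear, 6 of the 10 were called, where 19.8% of all features were (11.5% up and 8.27% down): S100a3 was higher in LG/J, and S100a4, S100a6, S100a8, S100a10 and S100b were lower. LG/J and SM/J arrays did not overlap for 9 members at day 7, where 47.4% of all features did not, and for 8 members in uninjured ear, where 28.8% did not. These 8 include S100a7a, whose uninjured arrays all lay under the background limit. The median log2 difference of the members was -0.68 at day 7 and -0.56 in uninjured ear, against 0.08 and 0.07 over all features. A strain difference at a single probe can come from a sequence difference under the probe, and since no probe sequences were used this was not tested.

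S100a3 showed the largest difference in favour of LG/J. It was at 8.66, 9.24 and 8.57 on the LG/J day 7 arrays, against 7.31, 7.09 and 6.97 on the SM/J day 7 arrays. In uninjured ear it was at 10.21, 9.66 and 8.73 in LG/J, against 8.20, 7.61 and 7.93 in SM/J. The LG/J arrays lay above the SM/J arrays in both states, by 1.70 ± 0.30 at day 7 (3.25-fold, adjusted p = 0.0015) and 1.62 ± 0.30 in uninjured ear (3.07-fold, adjusted p = 0.00244). The mean level of the hair markers was 5.87 to 6.36 in LG/J against at most 5.68 in SM/J at day 7, and 5.81 to 6.84 in LG/J against at least 5.85 in uninjured SM/J ear, where the ranges overlapped. Of these 15 markers, 1 lay under the background limit on all LG/J day 7 arrays, 8 on all SM/J day 7 arrays, 0 on all LG/J uninjured arrays and 4 on all SM/J uninjured arrays. Their part in the S100a3 difference was not tested.

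S100a4 was lower in LG/J with no overlap. It was at 11.57, 11.48 and 11.77 on the LG/J day 7 arrays, against 12.93, 12.60 and 12.68 on the SM/J day 7 arrays. In uninjured ear it was at 11.39, 11.37 and 11.48 in LG/J, against 12.49, 12.82 and 12.68 in SM/J. The log2 differences were -1.13 ± 0.14 at day 7 (adjusted p = 8.56e-05) and -1.25 ± 0.14 in uninjured ear (adjusted p = 4.09e-05), so the strain gap was much larger than the change at the wound in either strain. The mean level of 15 fibroblast markers was 11.6 to 11.9 in LG/J against 11.8 to 12.1 in SM/J at day 7, and up to 11.3 in LG/J against 11.2 to 11.6 in SM/J in uninjured ear, and their part in the S100a4 difference was not tested.

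S100a6 and S100a10 followed the same order as S100a4. S100a6 was at 12.39, 12.28 and 12.57 in LG/J against 13.21, 12.96 and 13.17 in SM/J at day 7, and at 11.98, 12.31 and 12.30 in LG/J against 12.81, 12.93 and 12.99 in SM/J in uninjured ear. S100a10 was at 12.57, 12.49 and 12.86 in LG/J against 13.64, 13.09 and 13.18 in SM/J at day 7, and at 12.24, 12.38 and 12.03 in LG/J against 13.05, 13.03 and 12.94 in SM/J in uninjured ear. Neither gene overlapped between strains in either state. The log2 differences of S100a6 were -0.70 ± 0.14 at day 7 (adjusted p = 0.003) and -0.72 ± 0.14 in uninjured ear (adjusted p = 0.00292). Those of S100a10 were -0.67 ± 0.16 at day 7 (adjusted p = 0.0106) and -0.79 ± 0.16 in uninjured ear (adjusted p = 0.00466), and the day 7 call was lost without SM/J day 7 replicate 1 (-0.49, adjusted p = 0.0517). When arrays were scaled to a common median in place of quantile normalization, the 4 differences were -0.37, -0.40, -0.35 and -0.48 in the order given and none was called.

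Among the genes that changed at the wound, S100a8 was lower in LG/J, with a log2 difference (LG/J minus SM/J) of -1.51 ± 0.25 at day 7 (adjusted p = 0.00109) and of -2.52 ± 0.25 in uninjured ear (adjusted p = 1.91e-05). S100a9 was lower in LG/J at a difference of -2.03 ± 0.27 at day 7 (adjusted p = 0.000185), but the uninjured groups overlapped, with a log2 difference of -0.45 ± 0.27 (adjusted p = 0.28). S100a7a was lower in LG/J at a difference of -1.70 ± 0.20 at day 7 (adjusted p = 7.15e-05), and was not above background in uninjured ear. S100b was lower in uninjured LG/J ear, at -0.67 ± 0.16 (adjusted p = 0.00992; -0.53 and adjusted p = 0.0672 under median scaling), and at day 7 its strain difference was -0.13 ± 0.16 with overlapping groups. S100a1 was higher in LG/J at day 7 by 0.59 ± 0.16 (adjusted p = 0.017), a call lost when LG/J day 7 replicate 3 was left out (adjusted p = 0.0622), and likewise for SM/J day 7 replicates 2 and 3 (0.0538 and 0.0549), and its uninjured difference was 0.42 ± 0.16 (adjusted p = 0.0831; 0.67 and adjusted p = 0.00921 under median scaling). S100a11 had differences of 0.42 ± 0.16 at day 7 (adjusted p = 0.0733) and 0.31 ± 0.16 in uninjured ear (adjusted p = 0.207). Both were called when LG/J uninjured replicate 4 was left out, at 0.41 (adjusted p = 0.0164) and 0.49 (adjusted p = 0.0101). With all arrays kept, both were also called with array weights (0.44 and 0.52). The day 7 one was called under further settings too, among them the authors' table (0.47, adjusted p = 0.0281).

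The order of the 4 groups differed between members. For S100a8 and S100a7a it ran SM/J day 7, LG/J day 7, SM/J uninjured and LG/J uninjured, with no overlap between neighbours, although the last 2 places of S100a7a lie under the background limit. S100a9 had the same order with overlap between the 2 uninjured groups. S100a4 and S100a6 ran SM/J day 7, SM/J uninjured, LG/J day 7 and LG/J uninjured, where the 2 states of a strain overlapped and the strains did not. S100a10 ran in that order too, with no overlap between any neighbours. S100b was highest in SM/J uninjured ear, then LG/J uninjured ear, and the 2 day 7 groups overlapped below them.

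Markers of other cells moved beside these genes. Of all features, 5.44% rose and 4.95% fell in LG/J, and 5.66% rose and 4.6% fell in SM/J. Of 11 measured neutrophil markers, 7 rose and 1 fell in LG/J and 8 rose and 1 fell in SM/J. Their mean level was 8.14 to 8.34 at day 7 against 6.82 to 7.49 in uninjured LG/J ear, and 8.20 to 8.66 at day 7 against 6.77 to 7.09 in uninjured SM/J ear. The granule gene Ltf was under the background limit on all uninjured arrays, and Elane, Ngp, Mmp8, Fpr1, Ly6g and Itgb2l were among the markers without a named probe. Of 10 measured wound keratinocyte markers, 7 rose in LG/J and 8 in SM/J, and none fell. Their mean level was 12.4 to 12.8 at day 7 against 8.95 to 9.09 in uninjured LG/J ear, and 12.8 at day 7 on all 3 arrays against 9.41 to 9.84 in uninjured SM/J ear. Of 15 macrophage markers, 12 rose in LG/J and 6 in SM/J, with a mean level of at least 10.7 at day 7 against 8.87 to 10.0 in uninjured LG/J ear, and 10.6 to 10.9 at day 7 against 9.70 to 9.84 in uninjured SM/J ear. The 8.87 was that of LG/J uninjured replicate 4, against 9.87 and 10.03 for the others of its group. In each strain 14 of the 15 had all day 7 arrays above all uninjured ones. Of all features, 28.8% in LG/J and 31.9% in SM/J did not overlap, in either direction. None of the 15 was called for the difference of the changes, where 0.425% of all features were. The part of these cells in the S100a8, S100a9 and S100a7a values was not tested.

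Cell types known to make S100b were followed by their markers, beside a share of 4.95% of all features that fell in LG/J and 4.6% in SM/J. Of 14 Schwann cell markers, 9 fell in LG/J and 10 in SM/J, and none rose. Their mean level was 8.92 to 8.93 at day 7 against 9.60 to 9.79 in uninjured LG/J ear, and 8.55 to 8.65 at day 7 against 9.46 to 9.60 in uninjured SM/J ear. Of 13 adipocyte markers, 5 fell in LG/J and 10 in SM/J, with a mean level of 9.25 to 9.34 at day 7 against 9.83 to 10.0 in uninjured LG/J ear, and 8.67 to 8.81 at day 7 against 9.43 to 10.2 in uninjured SM/J ear. Of 16 cartilage markers, 7 fell and 2 rose in LG/J and 9 fell and 2 rose in SM/J, with a mean level of 8.76 to 8.98 at day 7 against 9.15 to 9.35 in uninjured LG/J ear, and 8.58 to 8.64 at day 7 against 9.04 to 9.16 in uninjured SM/J ear. Of 10 melanocyte markers, 2 fell in LG/J and 1 in SM/J, with a mean level of 8.14 to 8.21 at day 7 against 8.34 to 8.92 in uninjured LG/J ear, and 7.63 to 7.77 at day 7 against 7.99 to 8.22 in uninjured SM/J ear. These melanocyte counts are too small to be told from the share of all features. The mean level of each of these 4 lists was lower on every day 7 array than on every uninjured array of the same strain, and their part in the S100b values was not tested.

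**Figure D3:**
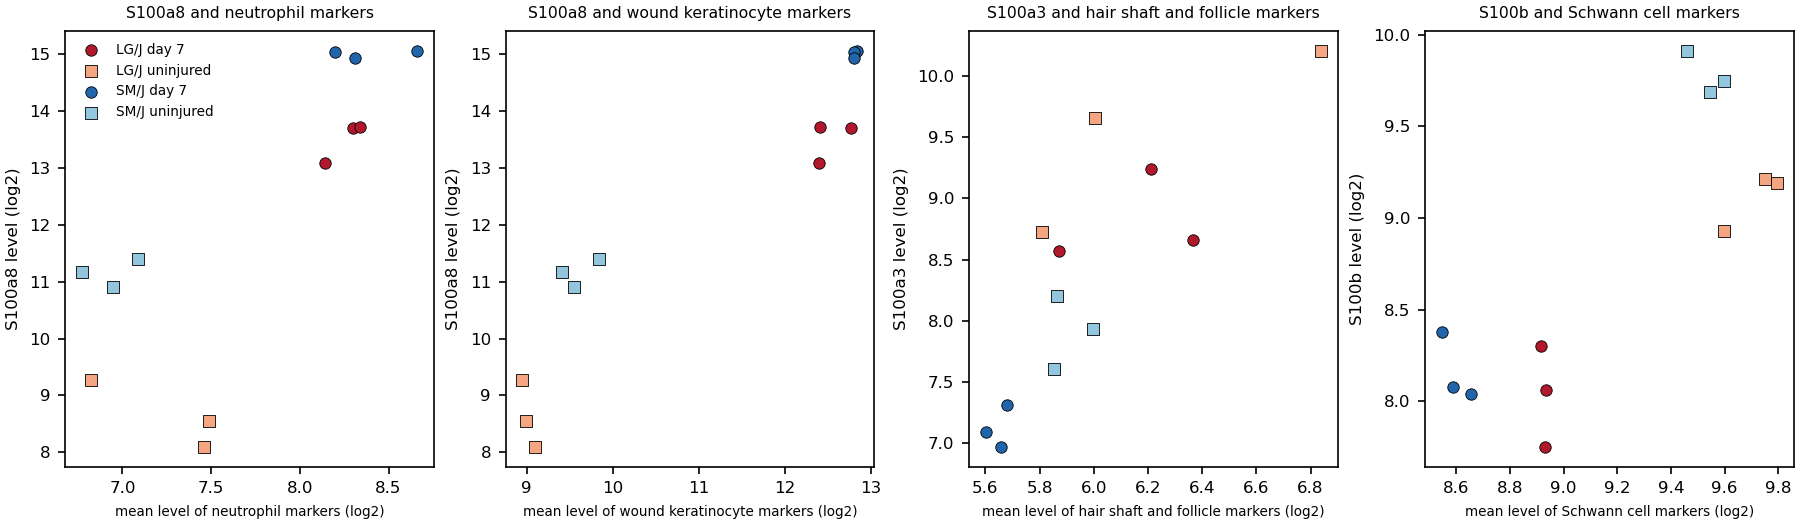
Log2 level of S100a8, S100a3 and S100b (vertical axes) against the mean log2 level of a marker list (horizontal axes) on each of the 12 arrays; colours are groups, circles day 7 and squares uninjured. Within each strain, day 7 arrays lie above uninjured arrays in S100a8 and in the neutrophil and wound keratinocyte lists, and below them in S100b and in the Schwann cell list.

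Genes with the most similar pattern were sought among 14203 named genes by the root mean square difference of centred log2 levels over the 12 arrays. For S100a8 they were Krt6a (0.54), a keratin of wound-edge epidermis, Spink7 (0.59), a protease inhibitor, and Sprr1b (0.66), a cornified envelope precursor. For S100a9 they were the small proline-rich genes Sprr2g (0.51) and Sprr2k (0.53) and the chemokine gene Ccl4 (0.55). For S100a7a they were Slpi (0.26), a secreted leukocyte protease inhibitor, the neutrophil chemokine gene Cxcl1 (0.31) and the prolactin family gene Prl2c2 (0.32). For S100b they were the galanin receptor gene Galr2 (0.17), Fam180a (0.21) and Arhgap20 (0.22), and for S100a1 they were Etfrf1 (0.14), Iqcb1 (0.14) and Ano7 (0.15). The root mean square of a member's own centred levels was 2.43 for S100a8, 2.49 for S100a9 and 1.31 for S100a7a. It was 0.73 for S100b and 0.43 for S100a1, so the values above cannot be ranked between members. Etfrf1 and Ano7 were called at the wound in neither strain. The likeness covers both injury and strain, and small proline-rich genes have closely related sequences, so which of them a probe reports is uncertain.

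Along chromosome 3 between S100a1 and S100a10, the S100 genes that rose in both strains were S100a7a, S100a8 and S100a9, which stand next to each other in the RefSeq order, and S100a14 and S100a16 rose in LG/J. Of the 13 S100 genes measured there, 5 rose and none fell in LG/J, and 3 rose and 1 fell in SM/J, where 5.44% of all features rose and 4.95% fell in LG/J, and 5.66% rose and 4.6% fell in SM/J. Of the 39 other genes measured there, 18 rose and 1 fell in LG/J, and 19 rose and none fell in SM/J. The median log2 change was 0.42 for these S100 genes against 0.48 for the others in LG/J, and 0.20 against 0.55 in SM/J. Between strains, 2 of the 13 S100 genes were higher and 6 lower in LG/J at day 7, and 5 of the 39 others were higher and 8 lower, where 14.1% and 10.5% of all features were. In uninjured ear, 1 of the 13 S100 genes was higher and 5 lower in LG/J, and 6 of the 39 others were higher and 6 lower, where 11.5% and 8.27% of all features were.

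**Figure D4:**
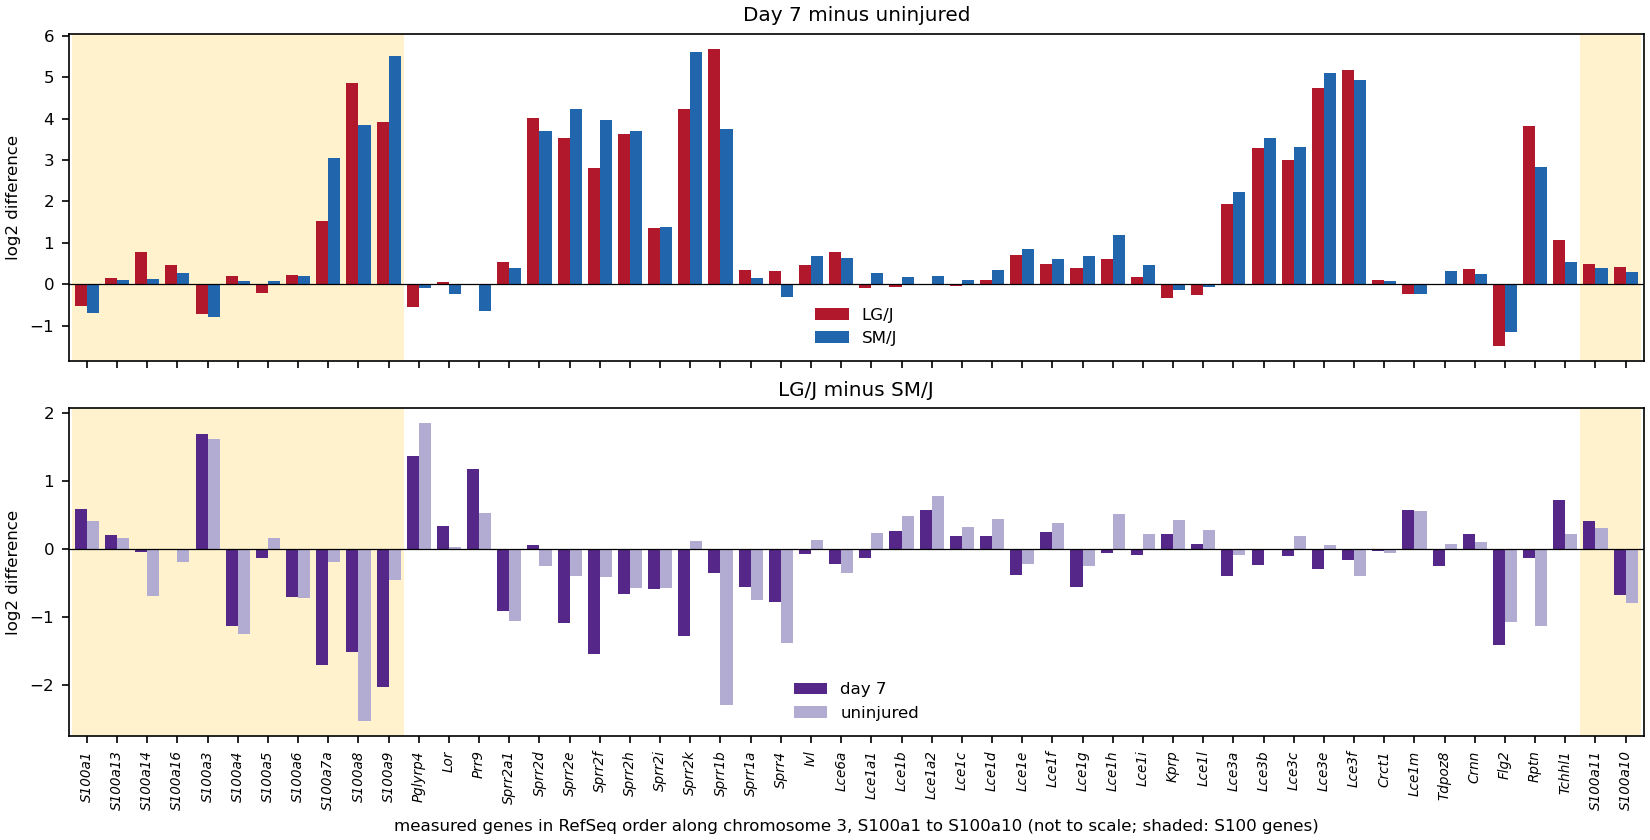
Log2 differences (vertical axes) of the measured genes in RefSeq order along chromosome 3 from S100a1 to S100a10, day 7 minus uninjured in each strain (above) and LG/J minus SM/J in each state (below); bars are fitted values, the horizontal axis is gene order and not to scale, and shading marks S100 genes. The block of S100a7a, S100a8 and S100a9 stands out among S100 genes at the wound, beside small proline-rich (Sprr) and late cornified envelope (Lce) genes that rose as well.

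The rest of the family and its partners were read from the same fit. In it, 5.44% of all features rose and 4.95% fell in LG/J, and 5.66% rose and 4.6% fell in SM/J. Of the 5 other S100 genes, 2 rose in LG/J, S100a14 (0.77 ± 0.16, adjusted p = 0.00698) and S100a16 (0.47 ± 0.12, adjusted p = 0.0258), and none was called in SM/J. S100a14 had 2 probes that disagreed: its other probe had a log2 change of 0.10 ± 0.17 in LG/J. The S100a16 call was lost on leaving out any LG/J day 7 array (adjusted p of 0.0714, 0.0994 and 0.057) or LG/J uninjured replicate 4 (0.0562), under median scaling (0.32, adjusted p = 0.318), with a replicate block (adjusted p = 0.113) and with only the compared groups in the fit (adjusted p = 0.101). S100a14 was lower in uninjured LG/J ear (-0.69 ± 0.16, adjusted p = 0.00828), as was its other probe (-0.62 ± 0.17), and none of the 5 was called between strains at day 7. Under median scaling S100a14 was called in neither comparison (0.67 in LG/J at the wound and -0.38 between strains).

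Fused S100 genes carry an S100 domain at the front of a large epidermal protein. Of 4 measured, Rptn, coding for repetin, rose by 3.83 ± 0.16 in LG/J (adjusted p = 4.03e-09) and by 2.83 ± 0.16 in SM/J (adjusted p = 8.87e-08). Tchhl1 rose by 1.06 ± 0.20 and Flg2, coding for filaggrin-2, fell by 1.49 ± 0.35 on the log2 scale in LG/J, and neither was called in SM/J. Flg2 lost its call without LG/J day 7 replicate 1 (-1.38, adjusted p = 0.0666). Between strains, Rptn was lower in uninjured LG/J ear (-1.13 ± 0.16, adjusted p = 0.000364), and Flg2 was lower in LG/J at day 7 (-1.41 ± 0.35, adjusted p = 0.0111) and in uninjured ear (-1.06 ± 0.35, adjusted p = 0.0467, which held in only 1 of the 12 fits with an array removed, the one without LG/J uninjured replicate 4). Tchhl1 was higher in LG/J at day 7 (0.73 ± 0.20, adjusted p = 0.0166), a call lost without LG/J day 7 replicate 1 or 2 or SM/J day 7 replicate 1 (adjusted p up to 0.0739).

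Among 10 genes of S100 receptors and their signalling, 3 rose in LG/J and 4 in SM/J, and none fell. Of all features, 5.44% rose and 4.95% fell in LG/J, and 5.66% rose and 4.6% fell in SM/J. The co-receptor gene Cd14 rose by 1.06 ± 0.25 in LG/J (adjusted p = 0.0137) and by 3.15 ± 0.25 in SM/J (adjusted p = 2.07e-06). The difference of these changes was -2.08 ± 0.35 (adjusted p = 0.0251), a call lost without any 1 of 9 arrays (adjusted p up to 0.0871), under median scaling (adjusted p = 0.0503) and with a replicate block (-1.78, adjusted p = 0.133). Cd14 was lower in LG/J at day 7, with a difference of -2.74 ± 0.25 (adjusted p = 5.88e-06). The scavenger receptor gene Msr1 rose by 1.35 in LG/J and 1.95 in SM/J, and Ly96, the partner of Toll-like receptor signalling at the cell surface, rose by 0.87 in LG/J and 0.95 in SM/J. The LG/J call of Ly96 was lost without any of that strain's day 7 arrays or its uninjured replicates 3 and 4 (adjusted p up to 0.116), and the SM/J call without day 7 replicates 1 and 2 or uninjured replicates 4 and 5, each left out alone (adjusted p up to 0.0853). The LG/J rise of Cd14 was no longer called when day 7 replicate 1 or 3 of that strain was left out (adjusted p of 0.0673 and 0.0586).

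Of 18 annexins and other S100 partners, 4 rose and 2 fell in LG/J, and 5 rose and 1 fell in SM/J. Of all features, 5.44% rose and 4.95% fell in LG/J, and 5.66% rose and 4.6% fell in SM/J. The falls are too few to be told from these shares. The plasminogen system genes, which the S100a10 complex serves at the cell surface, held the largest rises: Plat rose by 1.77 ± 0.16 in LG/J and 1.85 ± 0.16 in SM/J, and Plaur by 1.56 ± 0.20 in LG/J and 2.14 ± 0.20 in SM/J. Anxa3 rose by 1.55 ± 0.13 in LG/J and 1.21 ± 0.13 in SM/J. Anxa1, the annexin bound by S100a11, was lower in LG/J, with a difference of -1.64 ± 0.21 at day 7 (adjusted p = 0.00012) and of -1.79 ± 0.21 in uninjured ear (adjusted p = 6.65e-05). Its strain difference thus ran opposite in sign to the values of S100a11, which themselves missed the threshold. Other annexins had the sign of S100a11: Anxa6 at day 7 (0.71 ± 0.16, but 0.06 as the mean of its probes) and Anxa7 in uninjured ear (0.85 ± 0.17). In each state 2 of the 18 were higher and 2 lower in LG/J. Of all features, 14.1% were higher and 10.5% lower at day 7, and 11.5% and 8.27% in uninjured ear. These counts are too few to be told from those shares.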

How the data were processed

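RNA of ear tissue was hybridised to Illumina mouse bead arrays, 12 arrays in 4 groups of 3, with groups and replicate numbers taken from the labels. The authors deposited for each array 1 signal intensity per probe (45281 probes), on a linear scale and without normalization between arrays as far as the values show; the submitters' processing notes name BeadStudio, and the genome build is not given in the sources used here. A deposited table of 28845 probes with normalized intensity was used as an alternative only. The files hold no detection p-values or control probes.

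From these intensities, background was estimated by normexp (offset 16), values were quantile normalized after taking log2, and dropping the dimmest 25% of probes by mean level kept 33961. In the annotation table, 23604 probes had 1 symbol, 12 had several and 21665 had none. The brightest probe stood for a gene, giving 24691 features (14218 named genes and 10473 unnamed probes). limma 3.58.1 in R 4.3.3 fitted 1 mean per group with a shared spread (statmod 1.5.0 served array weights), and 5 comparisons were each adjusted over all features (Benjamini-Hochberg). A check on simulated data drew independent normal noise with no array effects, and its mean estimates recovered the known changes. It does not cover arrays that stand apart from their group. The background limit per array is the 95% quantile of a normal curve on the lower side of the signal mode.

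All members, every probe of theirs, and up to 3 called genes per list were named, with the 3 genes of most similar pattern for each member called at the wound. The members and lists were chosen with earlier results of these data known. Whether the arrays of a group stem from different mice is not in the labels, so each p-value rests on a spread between samples that may be technical. The number of independent animals behind each group is unknown, and the standard errors cannot account for it. The labels and headers used here give no scan date or slide. Of 3 arrays against 3, an exact permutation test cannot go below 0.10. Replicate numbers were not used as pairs: over 10 same-numbered pairs of arrays, the correlation of their deviations from group means lay between -0.093 and 0.186. Alternatives covered background correction, scaling, the authors' table, the filter, probes per gene, array weights, a replicate block, the variance model, the samples in the fit and each array left out. A bound for S100a7a at the background limit and counts over all features were added after seeing the data.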

Additional observations from a re-analysis of the deposited data

Results flagged for a closer look

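Differences between the strains stood out in 3 cases. For S100a7a the fitted difference of the changes, LG/J minus SM/J, was -1.52 ± 0.29 (limma, adjusted p = 0.041). All uninjured arrays were under the background limit, so the rises are bounds and only the day 7 levels, lower on all 3 LG/J arrays than on all 3 SM/J arrays, were measured. The call was lost when any 1 of 9 arrays was left out (adjusted p up to 0.139) and with the replicate block (adjusted p = 0.225). The rise of Cd14 was smaller in LG/J by -2.08 ± 0.35 in the same fit (adjusted p = 0.0251), and the call was lost when any 1 of 9 arrays was left out (the 3 LG/J day 7 arrays, LG/J uninjured replicates 1 and 3, SM/J day 7 replicates 1 and 2, and SM/J uninjured replicates 4 and 5), under median scaling (adjusted p = 0.0503) and with the replicate block (adjusted p = 0.133). The change of S100a9 relative to S100a8 was lower in LG/J than in SM/J by -2.59 on the log2 scale, with the LG/J day 7 arrays all below the LG/J uninjured ones and the SM/J day 7 arrays all above the SM/J uninjured ones. In LG/J the margin was narrow, with day 7 replicate 2 at -0.01 against 0.11 for uninjured replicate 4, and this difference was not tested. Neither gene alone was called for the difference of changes in the main limma fit (adjusted p = 0.338 for S100a8 and 0.0961 for S100a9).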

How the results depend on the processing

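Of 50 member results, 27 kept their direction and their side of the threshold under all alternatives, and of the 24 called ones 16 did; the other 8 are named in the report or here. All 3 rises and the fall of S100b in both strains, the S100a3 and S100a4 strain differences in both states, the S100a8 ones in both states and the S100a7a and S100a9 ones at day 7 were called under every alternative. S100a8 changed by 4.59 to 5.29 in LG/J and by at least 3.72 in SM/J over all of them, and S100a9 by 3.77 to 4.19 and 5.23 to 5.93. With 3 arrays a group, small differences could not be resolved, and levels under the background limit give bounds only. Causes of the shifts below were not tested.

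Reversals concerned differences near 0. The S100a3 difference of changes (0.08) was -0.0182 without background correction, -0.0034 with an offset of 50, -0.0459 in the authors' table, -0.3445 with array weights and -0.4645 without the 2 arrays that stood apart (replicate 4 of uninjured LG/J and replicate 2 of uninjured SM/J). That of S100a11 (0.11) was -0.0771 with array weights and -0.1951 without both arrays. The S100a4 change in SM/J was -0.0433 with median scaling, -0.0167 with array weights and -0.018 without both arrays, and that of S100a16 was -0.0108 with median scaling. With each array left out in turn, ranges were -0.3181 to 0.4154 (S100a3), -0.089 to 0.2258 (S100a11) and -0.0883 to 0.084 (S100a6) for the difference of changes, -0.0286 to 0.1486 for S100a4 in SM/J, and -0.2579 to 0.0154 for S100b between strains at day 7.

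Members called in LG/J numbered 7 with array weights, and those called for the difference numbered 3 with array weights, 2 without both arrays and 0 with the replicate block; with each array left out, the latter ran from 0 to 1. With array weights or without both arrays S100a8 was called for the difference (1.41 and 1.34), and S100a9 with array weights (-1.36). Among the members that block ended 2 calls, S100a7a for the difference (-1.20, adjusted p = 0.225) and S100a1 in SM/J (-0.45, adjusted p = 0.227).

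Over all features, LG/J counts were 4344 with array weights, 1567 with only the compared groups in the fit and 1410 to 2765 with each array left out. SM/J counts were 5692 with array weights, 1243 with the replicate block, 5061 without both arrays and 1447 to 4455 with each array left out. Counts for the difference were 836, 10, 1217 and 14 to 349 in the same settings. In uninjured ear, strain counts were 10007, 2336, 8729 and 2546 to 8146 in these settings, and 2208 with only the compared groups. At day 7 they were 9142 with array weights and 3592 to 8314 with each array left out. Median scaling put the median of all features at -0.07 in LG/J, -0.07 in SM/J and 0.11 between strains at day 7, against -0.0021, -0.0023 and 0.08 with quantile normalization, and moved the share of calls that were up to 30.1% in LG/J and 27.7% in SM/J, against 52.3% and 55.1%.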
